A study of Mus musculus with 8 samples.

Results

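The lysosome genes described here are 34 genes fixed by name, covering hydrolases, membrane proteins, subunits of the proton pump and 2 transcription factors of the lysosome. Each of the 34 names matched 1 row among the 37417 genes in the deposited table, and all 34 were among the 14800 genes that passed the filter on low counts. The tissue was epididymal white fat, the visceral pad along the epididymis, of male C57Bl/6 mice fed chow. The knockout group was 4 mice labelled Adiponectin-Cre ERT2-Atg3 flox/flox, and the control group was 4 mice labelled WT; mice of both groups were treated with tamoxifen. The labels give no age and do not say whether the WT mice carried a floxed allele or Cre. Cre-ERT2 is a recombinase that becomes active on tamoxifen, and the adiponectin promoter drives it in adipocytes, so the other cells of the fat pad keep the gene. Polyadenylated RNA of each mouse was sequenced as 1 library.

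Lysosomes are acidic organelles that digest proteins, glycans and lipids delivered by endocytosis and by autophagosomes. The vacuolar ATPase (V-ATPase) pumps protons into the lumen, where cathepsins, glycosidases and lipases work at low pH, and membrane proteins export or shield the contents. TFEB and TFE3 are related transcription factors that enter the nucleus when the nutrient-sensing kinase mTORC1 is inactive and that activate many lysosome and autophagy genes. In fat, lysosomal acid lipase and cathepsins are abundant in macrophages as well as present in adipocytes. The comparison asked how transcripts of this organelle differed in fat of mice in which Atg3 was targeted in adipocytes. Atg3 encodes the enzyme that attaches LC3-family proteins to the autophagosome membrane.

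Total counts ran from 10986375 to 21688464 per library, and each lysosome gene had between 146 and 56018 reads in any library. Levels are CPM, read counts relative to the TMM-scaled library size. Atg3 itself held 49.1, 44.5, 53.6 and 53.5 CPM in wild-type libraries 1 to 4 and 30.5, 32.2, 30.8 and 27.8 CPM in knockout libraries 1 to 4. The groups did not overlap, and Atg3 fell with edgeR's quasi-likelihood test (log2 fold change -0.73, SE 0.0860, adjusted p = 0.0168). Its knockout mean was 0.604 of the wild-type mean. How much of the Atg3 RNA left came from other cells or from adipocytes was not measured. Leaving out libraries ended the call in 4 cases, with edgeR adjusted p of 0.0543 (wild-type 1 left out), 0.0705 (wild-type 4), 0.0745 (knockout 2) and 0.0989 (knockouts 2 and 3 together), at log2 fold changes of -0.77 to -0.70. The 10 adipocyte markers, which define the labelled tissue, summed to 31848 to 38957 CPM in wild-type libraries and 27260.5 to 31970.1 CPM in knockouts, with knockout libraries 1 to 3 below every wild-type library. Of these 10 markers 9 had negative log2 fold changes and 0 were called; Adipoq (-0.45) and Slc2a4 (-0.84) had all knockout libraries below all wild-type ones. The part of this difference in the results was not tested. Markers of duct epithelium were 9 genes named from earlier results of these data, so their values are a description. Of these, 6 were tested and 0 called. Knockout libraries 2 and 3 stood apart in them, with sums of 444 and 446 CPM. The sums were 28.8 and 38.3 CPM in knockout libraries 1 and 4 and 8.20 to 18.4 CPM in wild-type libraries. Counts of members called are therefore also given without knockout libraries 2 and 3. Mitochondrial genes took 3.05 to 4.93% of counts in wild-type and 5.03 to 6.08% in knockout libraries, without overlap, and the part of this difference in the results was not tested. In whole tissue, fewer cells of a type and less RNA per cell cannot be told apart.

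None of the 34 lysosome genes differed between genotypes at an adjusted p of 0.05, with adjusted p from 0.262 to 0.988 (edgeR's quasi-likelihood test, 0 higher and 0 lower). Over all tested genes 0.405% were called, 0.277% higher and 0.128% lower in knockout fat. At so small a share, a count of 0 among 34 genes says little by itself. By unadjusted p, 1 member lay under 0.05, the membrane protein gene Scarb2, against 16.2% of all tested genes. In all 34 members the CPM values of knockout and wild-type libraries overlapped, whereas 8.86% of tested genes had groups that did not overlap, 4.32% with all knockout libraries above and 4.54% with all below. DESeq2, which called 5.47% of the same genes, called 0 members, with 2 members at an unadjusted p under 0.05.

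The size of difference in whole fat that these libraries leave possible was small for most members. Adipocytes were not measured apart from the cells that keep Atg3, so the limits given here do not hold for adipocytes alone. Log2 fold changes, knockout against wild-type, ran from -0.22 for Scarb2 to 0.53 for Atp6v0d2. Their median was 0.03, against -0.01 over all tested genes, with 20 positive and 14 negative values. For 31 of the 34 genes the 95% interval of the log2 fold change lay within 1.5-fold in either direction, which held for 57.9% of all tested genes. Lysosome transcripts are more abundant than most: the median wild-type level, scaled to exon length, was 38.6 RPKM for the members and 6.69 RPKM for all tested genes. The 3 exceptions were Gla, Ctss and Atp6v0d2, whose intervals reached 1.57-fold, 1.75-fold and 2.26-fold higher. Without knockout libraries 2 and 3 the median log2 fold change was 0.06, and edgeR called 0 members. In that fit it called 0.0197% of 15191 tested genes, so the count of 0 members says little.

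**Figure D1:**
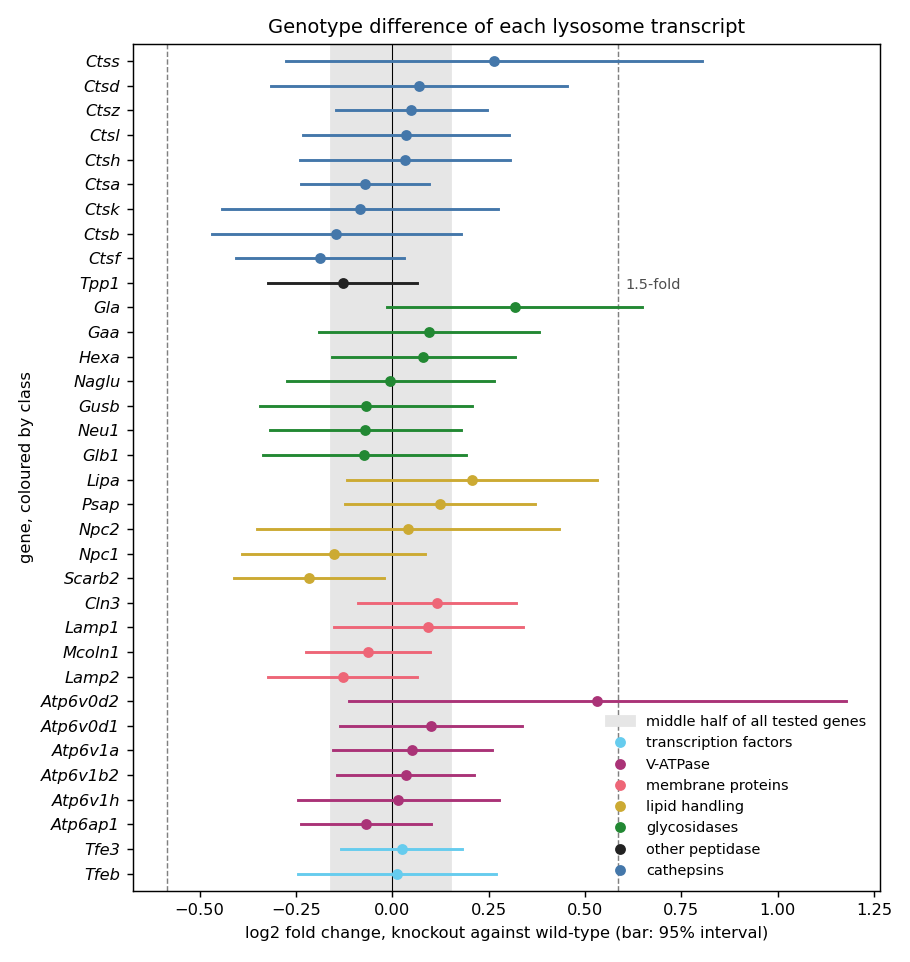
Log2 fold change of each of the 34 lysosome genes, knockout against wild-type (x axis), with its 95% interval as a bar; colours mark the classes, the grey band runs from the lower to the upper quartile of all tested genes and dashed lines mark 1.5-fold. Most bars stay inside the dashed lines; those of Gla, Ctss and Atp6v0d2 pass the right-hand one.

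Levels scaled to length spanned 2 orders of magnitude between members. Psap, the precursor of the saposins that present sphingolipids to hydrolases, was highest, with 860.3 ± 53.6 RPKM in wild-type and 937 ± 62.3 RPKM in knockout fat (SD, n = 4). Next came the proteases Ctsd (665 ± 151 RPKM in wild-type) and Ctsb (485 ± 76.6 RPKM), then the coat glycoprotein gene Lamp1 (370.2 ± 46.2 RPKM). At the low end stood Gla (4.16 ± 0.705 RPKM), Cln3 (4.57 ± 0.347 RPKM), Tfeb (4.57 ± 0.615 RPKM), Npc1 (7.46 ± 0.766 RPKM) and Tfe3 (7.62 ± 0.273 RPKM). By class, the median wild-type level was 149 RPKM for the 9 cathepsins, 51.7 RPKM for the 5 lipid handling genes, 40.2 RPKM for the 6 V-ATPase genes and 19.7 RPKM for the 7 glycosidases. These levels use the deposited exon lengths, which are shorter than those of the GENCODE vM21 annotation for several members. Scarb2, whose level is the lipid handling median, has 2110 deposited and 6285 GENCODE bases, and Atp6v1h has 1976 and 9746. Class medians with GENCODE lengths were not computed, so the order of the classes is uncertain.

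**Figure D2:**
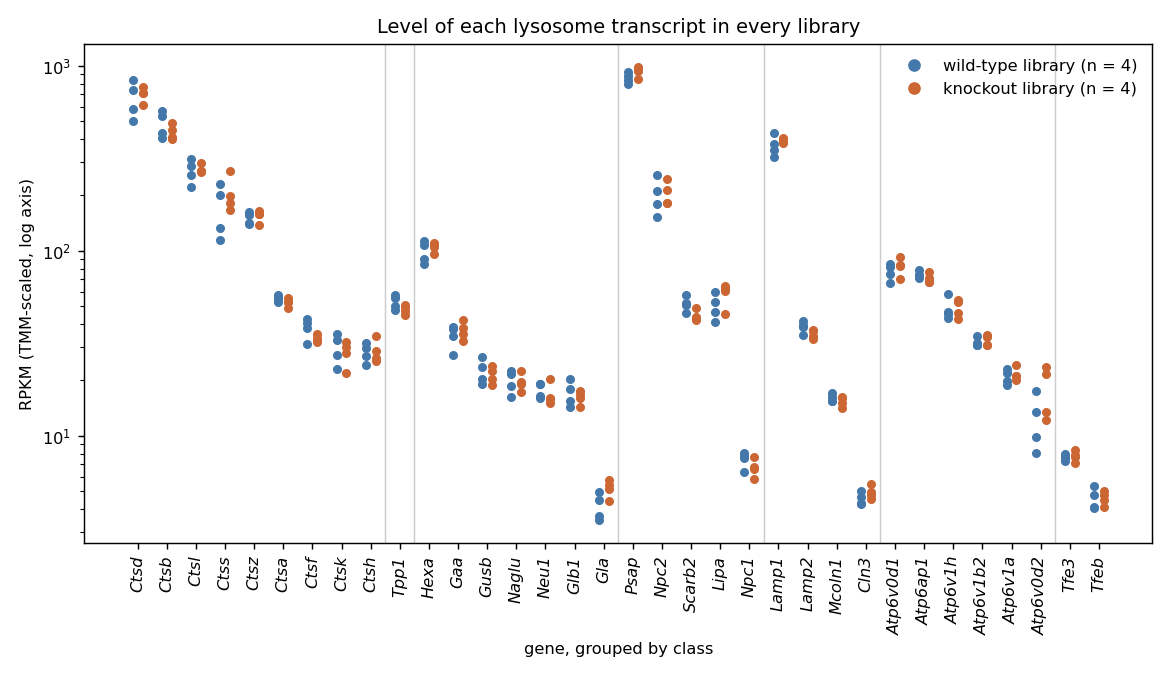
Level of each lysosome gene in RPKM (log axis) in every library, grouped by class, with blue points for the 4 wild-type and orange points for the 4 knockout libraries. The 2 colours overlap for each gene, and levels run from Gla and Cln3 near the bottom to Psap at the top.

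The transcription factors come first in the order of control. Tfe3 (chromosome X, 7762559 to 7775202, plus strand, mm10) held 71.2, 73.5, 67.4 and 70.2 CPM in wild-type libraries 1 to 4 and 72.8, 65.9, 70.8 and 77.5 CPM in knockout libraries 1 to 4. The knockout libraries spread on both sides of the wild-type values. With a log2 fold change of 0.02 (95% interval -0.13 to 0.18), Tfe3 was the member with the smallest standard error (0.0698). Tfeb held 30.4, 23.0, 23.3 and 27.0 CPM in wild-type and 23.4, 27.3, 28.3 and 25.5 CPM in knockout libraries, with a log2 fold change of 0.01 (interval -0.24 to 0.27). Its highest library was wild-type library 1. These are transcript levels; the entry of these proteins into the nucleus was not measured.

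What many members share is a sequence in their promoters. TFEB-type factors bind the E-box CACGTG, in lysosome genes often within the longer CLEAR element. The words searched were CACGTG, the 8-base core TCACGTGA, and the full 10-base element, which is that core with G before and C after it; each reads the same on both strands. Promoters from 250 bases before to 50 after the transcript start were found in RefSeq (GRCm38.p6) for 28 of the 34 genes. The E-box was present for 13 of the 28 genes (46.4%), against 8.09% of all 27025 genes with a promoter in the table and 11.5% of the tested ones. The 8-base core was present for 7 genes (25%, against 1.13% of all and 2.11% of tested genes), and the full element for 1 (3.57%, against 0.370% and 0.771%). Each longer word contains the shorter ones, so the counts overlap. The members were named for their place in the lysosome, and several such genes are textbook TFEB targets, so the share is a description with no test.

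The windows below are shown because they carry the element in members whose transcripts are described in the next paragraphs. Each is 30 bases, 5′ to 3′ on the gene's strand, with the matched word in capitals: the full element for Cln3, the 8-base core for the next 7, and the 6-base E-box for Lamp1 and Glb1, which have no core.
Cln3: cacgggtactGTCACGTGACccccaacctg
Ctsa: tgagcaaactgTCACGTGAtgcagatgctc
Ctsd: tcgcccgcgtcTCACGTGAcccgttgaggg
Gla, nearer the start: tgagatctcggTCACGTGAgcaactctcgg
Gla, farther from it: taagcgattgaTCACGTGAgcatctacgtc
Mcoln1: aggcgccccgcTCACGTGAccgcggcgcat
Atp6v0d1: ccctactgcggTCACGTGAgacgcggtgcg
Atp6v1a: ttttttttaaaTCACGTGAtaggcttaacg
Lamp1: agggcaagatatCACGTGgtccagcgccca
Glb1: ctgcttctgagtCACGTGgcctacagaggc
In GRCm38.p6 these lie at chr7:126583340-126583369 (Cln3, minus strand), chr2:164833749-164833778 (Ctsa, plus), chr7:142387908-142387937 (Ctsd, minus), chrX:134601182-134601211 and chrX:134601215-134601244 (Gla, minus), chr8:3500462-3500491 (Mcoln1, plus), chr8:105566050-105566079 (Atp6v0d1, minus), chr16:44139373-44139402 (Atp6v1a, minus), chr8:13159088-13159117 (Lamp1, plus) and chr9:114401018-114401047 (Glb1, plus). In these windows the E-box began 121 bases before the start in Cln3, 98 in Ctsd, 194 and 227 in Gla, 45 in Mcoln1, 131 in Atp6v1a, 12 in Ctsa and 3 in Atp6v0d1. Ctsa held a second E-box, also within the 8-base core, whose first base lies 5 bases after its start, and Cln3, Ctsd and Mcoln1 each held a further E-box without the core. Lamp1 held 4 E-boxes, beginning 61, 45, 28 and 15 bases before its start.

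**Figure D3:**
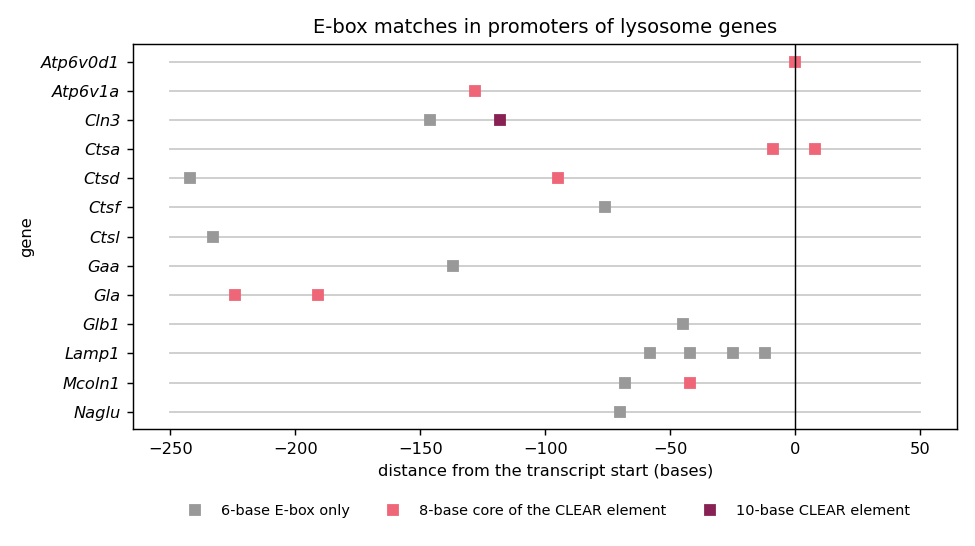
Centre of each E-box match (squares) along the promoters of the 13 lysosome genes that hold one, by distance from the transcript start in bases; colour gives the longest word matched. The first bases of the matches lie between 245 bases before (Ctsd) and 5 bases after the start (Ctsa), and Lamp1 holds 4 of them.

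Genotype differences of members with and without the E-box lie side by side as follows. The 13 with an E-box had a median log2 fold change of 0.05, from -0.19 (Ctsf) to 0.32 (Gla), with 8 positive and 5 negative. The 15 with a promoter but no E-box had a median of 0.01, from -0.22 (Scarb2) to 0.26 (Ctss), with 8 positive and 7 negative. Of the 7 with the 8-base core, 5 were positive and 2 negative, with a median of 0.07. In each of these sets 0 genes were called by edgeR, where 0.405% of all tested genes were. The difference between the sets was not tested.

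The 9 cathepsins are the lysosome's main proteases: Ctsd is an aspartic protease, Ctsb, Ctsf, Ctsh, Ctsk, Ctsl, Ctss and Ctsz are cysteine proteases, and Ctsa is a serine carboxypeptidase that also shields sialidase and beta-galactosidase. Their log2 fold changes had a median of 0.03, with 5 positive and 4 negative values and 0 called. Ctsd, the cathepsin with the highest length-scaled level (chromosome 7, 142371147 to 142388038, minus strand, mm10), held 1264, 1848, 2116 and 1475 CPM in wild-type libraries 1 to 4 and 1783, 1539, 1782 and 1925 CPM in knockout libraries 1 to 4. Its knockout values fell inside the wild-type range, and its log2 fold change was 0.07 (95% interval -0.32 to 0.45). Ctsf, the cathepsin with the lowest p (chromosome 19, 4855128 to 4860912, plus strand), held 62.2, 75.8, 84.3 and 80.3 CPM in wild-type and 63.7, 66.8, 69.9 and 65.3 CPM in knockout libraries. Wild-type library 1 lay below all knockout libraries and the other 3 above them. The log2 fold change of Ctsf was -0.19 (SE 0.0966, edgeR adjusted p = 0.381).

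The other cathepsins varied between mice by different amounts. Ctsa and Ctsz differed little, with 231 to 272 CPM and 199 to 236 CPM over the 8 libraries. Ctsb held 2296 ± 363 CPM in wild-type fat and 2076 ± 196 CPM in the knockouts, and Ctsl 531 ± 77.7 and 544 ± 31.4 CPM (SD, n = 4). Ctsk, the collagen-degrading cathepsin of osteoclasts and fibroblasts, held 44.0 ± 8.26 and 41.5 ± 6.60 CPM, and Ctsh, an aminopeptidase, 97.1 ± 11.3 and 99.4 ± 14.3 CPM. Ctss, the cathepsin that trims the MHC class II invariant chain in antigen-presenting cells, held 313, 271, 179.6 and 155 CPM in wild-type libraries and 365, 224, 267 and 247 CPM in knockout libraries. It was the most variable cathepsin, with a wild-type coefficient of variation of 32.5% against a median of 14.0% over all tested genes. Ctss had a log2 fold change of 0.26 (interval -0.28 to 0.81).

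Tpp1, a tripeptidyl peptidase lost in a neuronal ceroid lipofuscinosis, held 168, 203, 197 and 178 CPM in wild-type and 167, 159.6, 177 and 179.9 CPM in knockout libraries. Its groups overlapped through wild-type libraries 1 and 4. The log2 fold change of Tpp1 was -0.13 (95% interval -0.32 to 0.06).

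Glycosidases remove sugars from glycoproteins, glycolipids, glycogen and glycosaminoglycans. Of the 7, 3 had positive and 4 negative log2 fold changes, with a median of -0.01 and 0 called. Gla, the alpha-galactosidase A deficient in Fabry disease (chromosome X, 134588148 to 134601125, minus strand), held 16.3, 14.8, 12.0 and 11.4 CPM in wild-type libraries 1 to 4 and 17.6, 14.5, 18.9 and 16.7 CPM in knockout libraries 1 to 4. Wild-type libraries 1 and 2 overlapped the knockout values through knockout library 2. Its log2 fold change was 0.32 (SE 0.146), at an edgeR unadjusted p of 0.0576 and an adjusted p of 0.329. Hexa, the alpha chain of beta-hexosaminidase and the glycosidase with the highest length-scaled level, held 168, 201, 209.6 and 159 CPM in wild-type and 197, 179, 206 and 199 CPM in knockout libraries, all knockout values lying inside the wild-type range. For Hexa the log2 fold change was 0.08 (interval -0.16 to 0.32).

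The remaining glycosidases had log2 fold changes between -0.07 and 0.10. They are Gaa, the acid alpha-glucosidase that digests glycogen (166 ± 25.1 CPM in wild-type fat and 177 ± 19.1 CPM in the knockouts), and Gusb, beta-glucuronidase (102 ± 15.4 and 97.1 ± 10.4 CPM). Neu1, lysosomal sialidase, held 65.7 ± 6.16 and 62.6 ± 8.62 CPM, Naglu, which degrades heparan sulfate, 52.2 ± 7.42 and 52.0 ± 5.66 CPM, and Glb1, beta-galactosidase, 49.8 ± 7.72 and 47.3 ± 4.00 CPM (SD, n = 4).

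The lipid handling genes include the member nearest to a call. Scarb2 encodes LIMP-2, a membrane protein that carries glucocerebrosidase to the lysosome (chromosome 5, 92443872 to 92505608, minus strand). It held 97.2, 122, 108 and 109 CPM in wild-type libraries 1 to 4 and 91.3, 88.8, 103 and 93.0 CPM in knockout libraries 1 to 4. Knockout library 3 lay above wild-type library 1, and the other knockout libraries lay below all wild-type ones. The log2 fold change of Scarb2 was -0.22 (SE 0.0861, 95% interval -0.41 to -0.02), with an edgeR unadjusted p of 0.0335 and an adjusted p of 0.262. Its partners in the class pointed in both directions, with 3 positive and 2 negative values and a median of 0.04.

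Psap held 2289, 2518, 2405 and 2179 CPM in wild-type and 2559.8, 2318, 2662 and 2692 CPM in knockout libraries. Knockout library 2 lay within the wild-type range and the other 3 above it, and the log2 fold change was 0.12 (interval -0.12 to 0.37). Lipa, lysosomal acid lipase, which hydrolyses cholesteryl esters and triglycerides, held 157, 179, 139 and 123 CPM in wild-type and 183, 135, 179.8 and 191 CPM in knockout libraries. Knockout library 2 again lay within the wild-type range while the others lay above it (log2 fold change 0.21, interval -0.12 to 0.53). Npc1 and Npc2 pass cholesterol out of the lysosome together, one in the membrane and one in the lumen. Npc1 held 80.0 ± 8.22 CPM in wild-type fat and 72.0 ± 8.0 CPM in the knockouts, and Npc2 649 ± 145 and 667 ± 100.1 CPM (SD, n = 4).

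Among the membrane proteins, Lamp1 and Lamp2 form the glycoprotein coat of the lysosome, and a Lamp2 isoform serves chaperone-mediated autophagy. Lamp1 (chromosome 8, 13159134 to 13175338, plus strand) held 726, 854, 969.5 and 789 CPM in wild-type libraries 1 to 4 and 903, 859, 884 and 917 CPM in knockout libraries 1 to 4. The knockout libraries lay close together inside the wild-type range (log2 fold change 0.09, 95% interval -0.15 to 0.34). Lamp2 (chromosome X, 38401356 to 38456454, minus strand) held 377, 400.2, 372 and 335 CPM in wild-type and 332, 350.4, 357 and 318 CPM in knockout libraries. Wild-type libraries 1 to 3 lay above all knockout libraries and wild-type library 4 did not, and the log2 fold change was -0.13 (interval -0.32 to 0.06). Counts cover the whole gene, so Lamp2 isoforms are not separated. Mcoln1, the calcium channel TRPML1, held 56.3 ± 2.60 and 54.0 ± 3.41 CPM, and Cln3, a membrane protein lost in juvenile ceroid lipofuscinosis, 26.4 ± 2.01 and 28.6 ± 2.23 CPM (SD, n = 4).

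The V-ATPase has a cytosolic V1 sector that burns ATP and a membrane V0 sector that moves protons. Of the 6 members, 5 had positive log2 fold changes, with a median of 0.04 and 0 called. Atp6v0d1, the widely expressed d subunit of V0 (chromosome 8, 105524464 to 105566047, minus strand), held 119.6, 134, 151 and 146 CPM in wild-type libraries 1 to 4 and 149.7, 148, 127 and 165 CPM in knockout libraries 1 to 4. Its libraries were interleaved between genotypes (log2 fold change 0.10, 95% interval -0.14 to 0.34). Of the V1 subunits, Atp6v1a, the catalytic A subunit, held 126 ± 11.3 CPM in wild-type fat and 131 ± 10.9 CPM in the knockouts, Atp6v1b2 169.8 ± 9.40 and 174 ± 12.2 CPM, and Atp6v1h 95.6 ± 13.0 and 96.6 ± 10.7 CPM (SD, n = 4). Atp6ap1, an accessory subunit needed for assembly, held 225 ± 9.03 and 214 ± 13.0 CPM.

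Atp6v0d2, the alternative d subunit known from osteoclasts and macrophages (chromosome 4, 19876840 to 19922605, minus strand), had the largest log2 fold change of the 34 genes and the widest spread. It held 36.5, 47.5, 21.8 and 26.8 CPM in wild-type libraries 1 to 4 and 58.5, 33.0, 64.2 and 36.5 CPM in knockout libraries 1 to 4. Knockout libraries 1 and 3 stood above all others, while 2 and 4 lay within the wild-type range. The log2 fold change was 0.53 (SE 0.285, edgeR adjusted p = 0.401, interval -0.11 to 1.18), and 0.37 without knockout library 3 or 0.76 without wild-type library 2. Its highest library held 2.94 times its lowest, the widest range of any member, followed by Ctss with 2.35 times.

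The libraries differed in ways that crossed genotype. Of the 34 genes, 10 had their highest level in wild-type library 3, where 13.6% of all tested genes had theirs; these were Ctsb, Ctsd, Ctsf, Hexa, Glb1, Gusb, Npc2, Lamp1, Atp6v1h and Atp6ap1. That library also had the highest sum of the 10 adipocyte markers, 38957 CPM against 27260.5 to 33075 CPM in the other 7. Its TMM factor, 0.937, was the lowest, and that of wild-type library 1, 1.06, was the highest. A low factor raises CPM. As a share of raw counts the members took 1.22% in wild-type library 3, against 1.26% in wild-type library 2 and in knockout library 3. The part of adipocytes or of scaling in these counts was not tested. Wild-type library 1 was lowest for 9 members, among them Ctsd, Npc2 and Lamp1, and knockout library 2 for 7. The share of all tested genes that were lowest in these libraries was not computed, so these counts may not be particular to the members. The median deviation of the 7 glycosidases from their wild-type mean was -0.23 on the log2 scale in wild-type library 1 and 0.16 in both wild-type library 3 and knockout library 3. Over all 34 genes the median deviation lay between -0.11 and 0.09 in the wild-type libraries and between -0.08 and 0.11 in the knockout libraries.

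**Figure D4:**
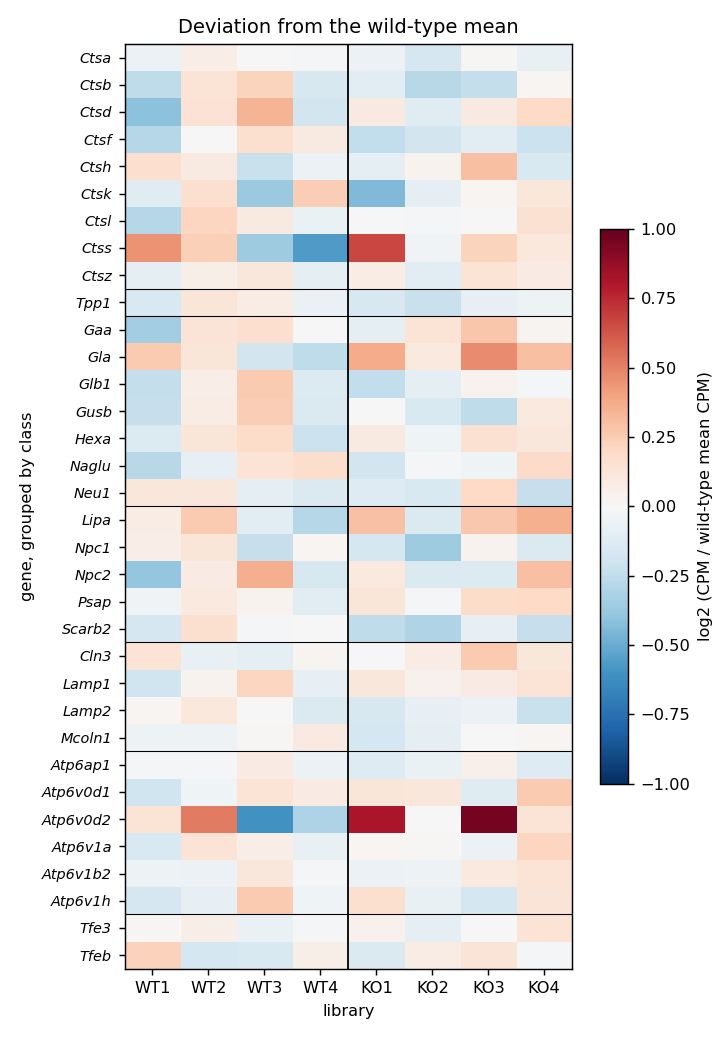
Deviation of each lysosome gene (rows, by class) in each library (columns) from its wild-type mean, as log2 of the CPM ratio, red for higher and blue for lower. Ctss and Atp6v0d2 show the strongest colours, in libraries of both genotypes, and no class of more than 1 gene is uniformly red or blue across the 4 knockout columns.

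Macrophage markers are given here beside the 2 most variable members. The 15 macrophage markers, all detected in every library, had sums of 2861, 3084, 2268 and 2127 CPM in wild-type libraries 1 to 4 and 3293, 2355, 3346 and 2733 CPM in knockout libraries 1 to 4. The 3 libraries with the highest sum, knockout 3, knockout 1 and wild-type 2, were also the 3 highest for Atp6v0d2, and wild-type libraries 3 and 4 were the lowest for both. Ctss had another order: knockout library 1 was highest, then wild-type libraries 1 and 2, all above knockout library 3, with wild-type libraries 3 and 4 lowest. The sum is not weighted, so markers with the most reads count most, and single markers had different orders. The highest library was knockout 3 for Gpnmb, knockout 1 for Adgre1 and wild-type 2 for Csf1r. The 15 markers did not all point one way, with 12 positive and 3 negative log2 fold changes and 0 called; Cd163 (-0.63, edgeR unadjusted p = 0.0131) and Mrc1 (-0.25) were lower in knockout fat on average. Of the 6 antigen-presenting markers, which include MHC class II genes, the sums spanned 1412 to 2656.5 CPM in wild-type libraries and 2251 to 2805 CPM in knockouts, lowest in wild-type library 3. All 6 had positive log2 fold changes and 0 were called. Knockout library 1 was highest for both this sum and Ctss, and wild-type libraries 3 and 4 were lowest for both, while the order between differed. The part of macrophages or antigen-presenting cells in the levels of Atp6v0d2 and Ctss was not tested. Clear cells of the epididymis are also rich in V-ATPase; of 5 clear cell markers, the regulator Foxi1 and the subunits Atp6v1b1 and Atp6v1g3 had 0 to 0.0860 CPM in every library, and the other two, Atp6v0a4 and Atp6v1c2, are described with the V-ATPase subunits below.

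**Figure D5:**
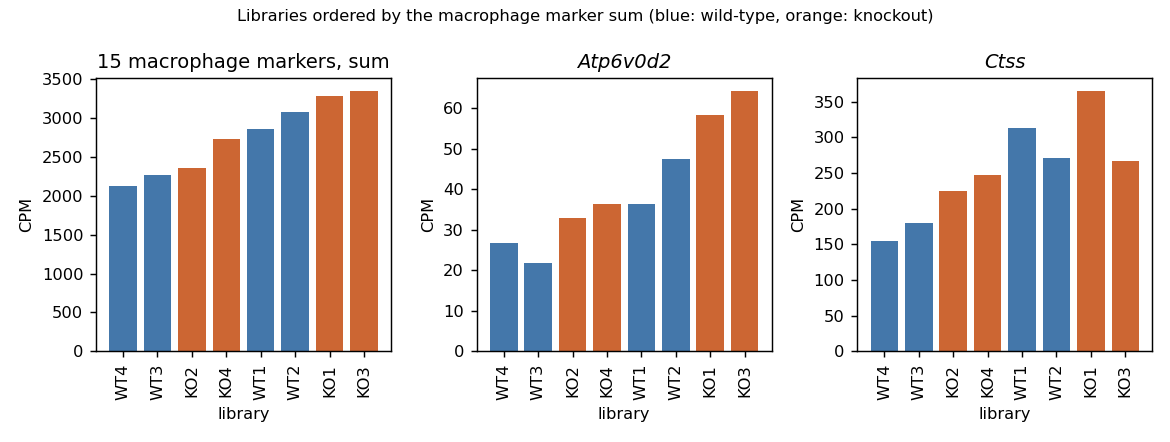
Summed CPM of 15 macrophage markers and CPM of Atp6v0d2 and Ctss in each library (bars, blue for wild-type and orange for knockout), with libraries in the order of the macrophage sum. For Atp6v0d2, the bars are lowest at wild-type libraries 3 and 4 (21.8 and 26.8 CPM) and highest at knockout libraries 1 and 3 (58.5 and 64.2 CPM), whereas Ctss peaks at knockout library 1 (365 CPM).

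Other genes of the lysosome were taken from 4 wider lists of 81 genes, of which 80 were found and 78 tested. Over all 78 genes 0 were called by edgeR, against 0.405% of all tested genes. At an unadjusted p under 0.05 stood 12 of them, or 15.4%, close to the 16.2% of all tested genes. Of their log2 fold changes 44 were positive and 34 negative, with a median of 0.06. The smallest p belonged to Fuca1, lysosomal alpha-fucosidase, with 114, 119.6, 147 and 137 CPM in wild-type and 164, 241, 234 and 182 CPM in knockout libraries. Its groups did not overlap, and knockout libraries 2 and 3, those with the duct markers, were the highest; the part of that tissue was not tested. The log2 fold change of Fuca1 was 0.66 (SE 0.144, edgeR adjusted p = 0.0964). It was 0.43 without knockout libraries 2 and 3 (adjusted p = 0.411) and 0.76 without knockout library 1 (adjusted p = 0.0368). Arsb, which removes sulfate from glycosaminoglycans, followed among the 25 further hydrolases, with a log2 fold change of -0.15 (adjusted p = 0.381).

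The 20 membrane and sorting genes had a median log2 fold change of -0.02. Tmem192, a lysosomal membrane protein, held 33.9 ± 3.52 CPM in wild-type fat and 40.8 ± 1.95 CPM in the knockouts without overlap (edgeR adjusted p = 0.199), and Cd63, a tetraspanin of late endosomes, 84.4 ± 5.17 and 99.5 ± 10.2 CPM (adjusted p = 0.236; SD, n = 4). Of 18 genes for TFEB control and nutrient sensing, 7 were positive and 11 negative. Ppp3cb, a calcineurin catalytic subunit that dephosphorylates TFEB, held 84.0 ± 7.77 and 70.3 ± 5.03 CPM (edgeR adjusted p = 0.201). Rragd, a GTPase that recruits mTORC1 and is itself a TFEB target, held 2.67, 2.47, 1.48 and 1.51 CPM in wild-type and 2.85, 9.26, 11.1 and 1.83 CPM in knockout libraries. Its high values were those of knockout libraries 2 and 3: the log2 fold change of Rragd was 1.62 (edgeR adjusted p = 0.210) and 0.20 without them.

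Of the 15 other V-ATPase genes tested, 13 had positive log2 fold changes, with a median of 0.12 and 0 called by edgeR. Over all tested genes 47.6% were positive. At an edgeR unadjusted p under 0.05 stood 4 of the 15 (26.7%), against 16.2% of all tested genes. They were Atp6v0a4, Atp6v1c2, Atp6v0e and Atp6v1g2. The largest log2 fold changes were those of Atp6v0a4 and Atp6v1c2, isoforms known from epithelia. Atp6v0a4 held 1.63, 3.06, 0.328 and 1.11 CPM in wild-type and 2.69, 11.7, 16.5 and 1.49 CPM in knockout libraries, again highest in knockout libraries 2 and 3. Its log2 fold change was 2.37 (edgeR adjusted p = 0.211) and 0.42 without those libraries. Atp6v1c2 held 1.89, 1.18, 4.43 and 2.82 CPM in wild-type and 7.77, 5.78, 7.90 and 3.99 CPM in knockout libraries (log2 fold change 1.30, adjusted p = 0.171, and 1.20 without knockout libraries 2 and 3). DESeq2 called Atp6v0a4, Atp6v1c2 and Fuca1 and no other of the 78 genes, a share of 3.85% against 5.47% of all tested genes.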

How the data were processed

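Per the labels' protocols, oligo(dT)-selected RNA was made into stranded libraries and read once for 50 cycles. Novoalign 2.8.1, Picard and build mm10 appear in the submitters' processing notes, with no role or order. The counting program, annotation and use of strand were not given in the sources used here. Per the file headers, the authors deposited whole read counts and FPKM values per gene and library. The 158499 deposited FPKM values above 0 equal the counts scaled by exon length and library total within 0.1%, and were not used further.

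Counts were analysed in R 4.3.3 with edgeR 4.0.16: filterByExpr (minimum count 10), TMM, and the quasi-likelihood F test of 4 knockout against 4 wild-type libraries with no covariate, Benjamini-Hochberg adjusted over 14800 genes and called at 0.05. Intervals are 95% intervals from that test, not adjusted for the number of genes. RPKM is CPM per kilobase of the deposited exon length. The test was checked on simulated data with changes of 1.5-fold or more. The shares recovered are not reported here, so the check does not show how often a 1.5-fold change would be called. Smaller changes, the size estimated for every member, were not simulated. Alternatives included DESeq2 1.42.0 and limma-voom (limma 3.58.1). No libraries of a genotype agreed within sampling noise (lowest chi-square per gene 18.4).

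The members, lists and alternatives were chosen with earlier results of these data known. Each of the 34 genes is accounted for, and its library values are given where it had the lowest p or the highest level of its class; the library values of Ctss, Lipa and Tfeb were added after they were seen. Among wider genes, the 2 of each list with the lowest p were named. Lamtor4, Lamtor5 and Adgre1 were matched by Ensembl identifier. In GENCODE vM21, exons of other genes overlap Ctsd, Ctsl and Glb1 on the same strand and Atp6v1h, Cln3, Ctsa, Ctsb, Ctsl, Ctsz, Hexa, Lamp1 and Npc1 on the opposite strand, so these counts are uncertain. On the same strand the overlap took up 34.4% of the exonic bases of Ctsd, 6.09% of Ctsl and 5.49% of Glb1. On the opposite strand the largest overlap with 1 other gene was 26.8%, in Ctsl.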

Additional observations from a re-analysis of the deposited data

Results flagged for a closer look

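Ctsl stood out in 1 library. It held 529, 525 and 529.8 CPM in knockout libraries 1 to 3 and 590.8 CPM in knockout library 4, and the gap to the nearest library took up 0.932 of the group's range, above Dixon's 95% critical value for 4 samples. Each gene was checked in both genotypes, 68 groups in all, and 1 was beyond the limit; chance gives about 1 in 20.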

How the results depend on the processing

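No lysosome member was called in any of 18 alternatives. The median log2 fold change of the members was 0.03 in the main fit and ran from -0.03 to 0.06. It was negative without wild-type library 1 (-0.03) and without knockout library 4 (-0.01). These shifts were below 0.081, the SD of the member median over the 4 knockout libraries, which is a wide limit beside the median itself. The number of genes called over all tested genes was 60 and moved to 810 with DESeq2, 14 with the replicate block and 3 without knockout libraries 2 and 3 together; with 1 library left out it ran from 0 (without knockout library 2, where edgeR left 1573 genes under an unadjusted p of 0.05) to 290 (without knockout library 1). The wider lists gave 3 calls with DESeq2 and from 0 to 1 with 1 library left out, the 1 being Fuca1. Deviations of same-numbered libraries had correlations from -0.27 to 0.19 (the highest for number 1), inside the range of differently numbered ones (-0.33 to 0.29). The replicate block left the count of members called at 0, and Atg3 was not called with it (edgeR adjusted p = 0.111).

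Of the members, 20 kept their sign in every alternative and 14 did not, each with a log2 fold change of at most 0.10 in size. Naglu, at -0.0051, was 0.0021 with RLE scaling, 0.0088 with upper quartile scaling, 0.0151 with library size only, 0.0023 with DESeq2 and 0.00029 with limma-voom. Without knockout libraries 2 and 3, Ctsh was -0.11, Gaa -0.0157, Gusb 0.0631, Naglu 0.0294 and Tfeb -0.0696. With 1 library left out the values ran from -0.0440 to 0.20 (Ctsd), -0.0475 to 0.11 (Ctsl), -0.0602 to 0.0926 (Ctsh), -0.19 to 0.0150 (Ctsk), -0.0037 to 0.16 (Gaa), -0.14 to 0.0254 (Glb1), -0.14 to 0.0263 (Gusb), -0.0844 to 0.0581 (Naglu), -0.0664 to 0.19 (Npc2), -0.0366 to 0.12 (Atp6v1h), -0.0066 to 0.10 (Atp6v1a), -0.00025 to 0.0757 (Atp6v1b2), -0.0438 to 0.10 (Tfeb) and -0.0142 to 0.0685 (Tfe3). The cause of these changes was not tested.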
